A study of Mus musculus with 45 samples.

Results

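The comparison described here is that of organoids given retinoic acid (RA) with untreated organoids 8 h later, the earliest time after RA that was sampled, and it used 6 of the 45 libraries of the series: RA replicates 1 to 3 and untreated replicates 1 to 3 at 8 h. All were neural tube organoids that began from mouse embryonic stem cells of the wild-type line R1, which grew clonally in Matrigel in N2B27, a serum-free medium. On day 2 one set received all-trans RA at 250 nM and the other N2B27 alone, and both were collected 8 h later. In the labels the treatment text has 250 µM and no 8 h collection, whereas the design text of the series gives 250 nM and 8 h, which are used here. The whole series also holds day 2 itself and 6 later times with and without RA, in 15 conditions of 3 biological replicates each. One cell line was used, and the libraries hold RNA of whole organoids, so that fewer cells of a type and less RNA per cell cannot be told apart.

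RA is a small lipid made from vitamin A that enters the nucleus and binds the RA receptors (RARs), which sit on DNA with retinoid X receptors (RXRs). Without RA the pair holds corepressors at its target genes, and with RA it exchanges them for coactivators. In the early neural tube RA is known as a posteriorizing signal, under which Hox genes of the hindbrain and cervical spinal cord come on and forebrain genes go off, and it turns on enzymes that break RA down.

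Before any comparison, RA replicate 3 stood apart from its 2 replicates. Among 13883 genes, 927 (6.68%) differed over 2-fold between RA replicates 1 and 3 and 930 (6.70%) between RA replicates 2 and 3, against 19 (0.137%) between RA replicates 1 and 2 and 2 to 5 within the untreated group, on the log2(CPM + 1) scale. Its 4 Y-linked genes averaged 3.65 CPM (counts scaled to a common library size), against 74.0 to 89.5 in the other 5 libraries, and its mitochondrially encoded share was 0.0781% of the counts, against 0.0023% to 0.0030%. The part of these differences in the results was not tested, and counts of called genes, and the genes whose call changes, are given with and without that library. Total counts were 19087115 to 24357498 per library, at which 3 counts correspond to 0.123 to 0.157 CPM. The 10 neuroepithelial markers summed to 416 to 467 CPM in the untreated and 361 to 377 CPM in the RA libraries. Most of that sum was Sox2, which is also in the list of naive and core pluripotency genes below. The sum alone therefore does not mark neural tissue. The 8 pluripotency markers summed to 1984 to 2284 and 1748 to 2107 CPM. No marker of the neuroepithelial, pluripotent or early epiblast list was at 0 in every library, although Hes5 had no count in RA replicate 3.

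At 8 h, RA had raised 200 and lowered 85 of 15836 genes tested (1.26% and 0.537%), by edgeR's quasi-likelihood test (adjusted p below 0.01, and at least a doubling or halving on the log2 scale, a fold change beyond 1 or -1). Of the raised genes 94 exceeded a log2 fold change of 2 and 19 exceeded 4, while 17 of the lowered genes fell below -2. The median over all genes tested was 0.02. Protein-coding genes made up 184 of the raised and 76 of the lowered genes, and their share over all genes tested was not computed. In all 285 the 3 RA libraries lay beyond the 3 untreated ones, which was also so for 18.2% of all genes tested upwards and 19.6% downwards. Leaving out RA replicate 3 gave 606 raised and 227 lowered of 16329 genes (3.71% and 1.39%), which held 193 of the 200 and 73 of the 85. Leaving out RA replicate 1 or 2 instead gave 124 or 138 raised and 47 or 50 lowered genes, and leaving out untreated replicate 1, 2 or 3 gave 59, 89 or 63 raised and 21, 28 or 20 lowered. With each of the 6 libraries left out in turn, 53 of the raised and 18 of the lowered genes were called every time, and these are called stable below. Every count of called list members below stands against these shares of all genes tested. They are 1.26% raised and 0.537% lowered with all libraries, and 3.71% and 1.39% without RA replicate 3.

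Ranked by fold among called genes with a mean of at least 1 CPM, the 12 largest rises included Hoxb5, Zfp703, Hoxb4, Hoxb6, Hoxa4, Cyp26a1, Hoxa5, Hoxb2, Rarb, Cyp26b1 and Hoxb1. The 12 largest falls were Fgf5, Fst, Foxd3, Otx2, Vrtn, Kcng3, Slc35d3, Gm12688, Thy1, Dnmt3b, Mfap4 and Lef1. RA replicate 3 was the lowest of the RA libraries in 11 of these 12 falls and in 9 of the 12 rises. Without that library the log2 fold changes were 6.55 for Hoxb5, 5.67 for Zfp703, 5.53 for Cyp26a1, 4.82 for Rarb, -3.35 for Fgf5, -3.11 for Foxd3 and -2.82 for Otx2.

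**Figure D1:**
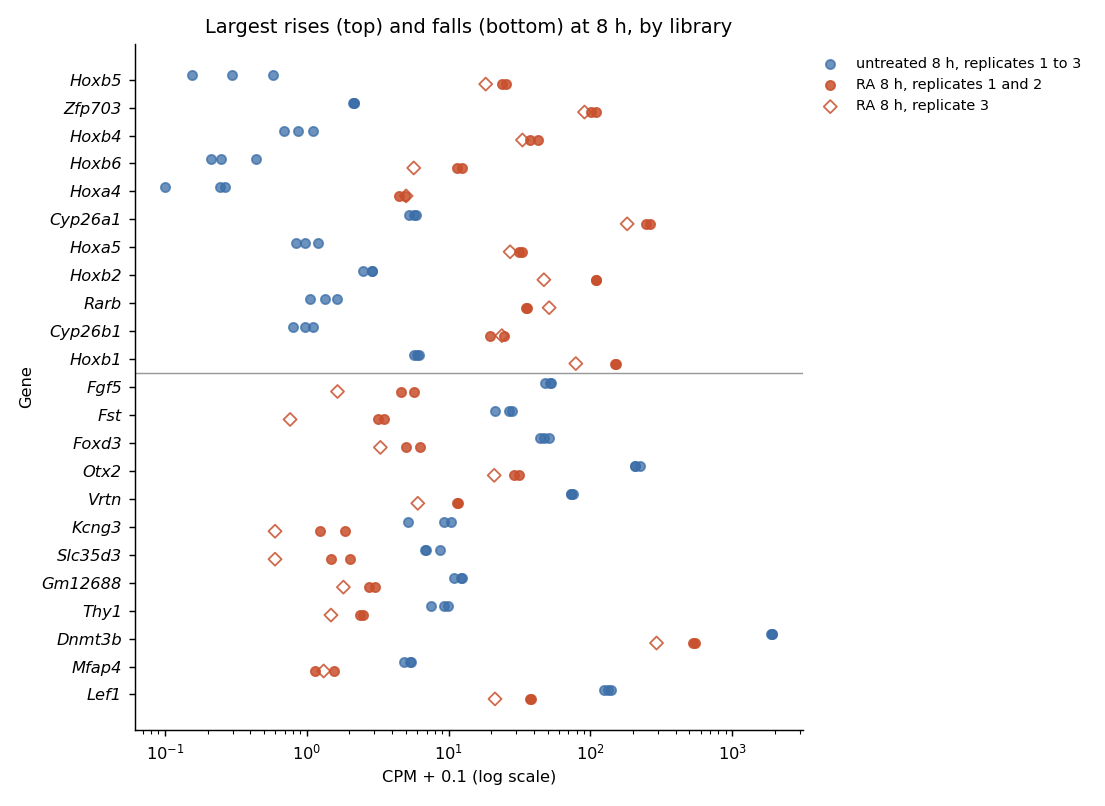
CPM plus 0.1 on a log axis in each of the 6 libraries at 8 h, for genes among the 12 largest rises (above the line) and for the 12 largest falls (below it). Filled blue points are untreated replicates 1 to 3, filled red points RA replicates 1 and 2 and open diamonds RA replicate 3, and in every gene shown the RA points lie on one side of all untreated points.

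The enzymes that remove RA were among the strongest rises. Cyp26a1 (ENSMUSG00000024987, chr19:37697798-37701536 on the plus strand of GRCm38, GENCODE M21), which encodes a cytochrome P450 that oxidizes RA, measured 5.16, 5.56 and 5.82 CPM in untreated replicates 1 to 3 and 265, 249 and 182 CPM in RA replicates 1 to 3. Its lowest RA library was thus far above its highest untreated one, with a log2 fold change of 5.39 ± 0.16, adjusted p = 1.27e-05 (here and below, ± after a fold change is its SE). Cyp26b1, a second enzyme of the family, went from 0.878, 0.696 and 1.01 CPM to 24.5, 19.4 and 23.6 CPM, a log2 fold change of 4.71 ± 0.19, adjusted p = 3.12e-05. Dhrs3, which reduces retinaldehyde back to retinol and so lowers RA production, went from 2.63, 1.54 and 2.36 CPM to 29.7, 30.2 and 18.8 CPM, with 3.60 ± 0.26, adjusted p = 4.32e-04. In all 3 genes the groups did not overlap and the call was stable. The other 6 tested genes of the list of RA synthesis and breakdown were not called, among them the retinol dehydrogenase gene Rdh11 (log2 fold change -0.44, adjusted p = 0.0115). Of the 13 listed genes 4 had too few counts to be tested. The list's median log2 fold change was 0.12, against 0.02 over all genes.

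Among the receptors, the gene of RAR beta was raised and those of the others were not called. Rarb (ENSMUSG00000017491, chr14:16430839-16819156, minus strand) measured 1.54, 1.24 and 0.962 CPM in the untreated and 34.9, 35.6 and 51.1 CPM in the RA libraries, with RA replicate 3 the highest, and its log2 fold change was 5.03 ± 0.25, adjusted p = 8.70e-05. Rara, the gene of RAR alpha, measured 56.4, 59.9 and 65.1 CPM and 102, 95.8 and 111 CPM, groups that did not overlap, but its log2 fold change of 0.77 was below the limit (adjusted p = 0.00252). Nrip1, which encodes a ligand-dependent corepressor of nuclear receptors, went from 14.7, 15.9 and 14.2 CPM to 138, 154 and 175 CPM, with 3.39 ± 0.12, adjusted p = 1.87e-05. Tgif1, a homeobox corepressor gene, lay at 125, 128 and 131 CPM and 72.7, 72.6 and 69.4 CPM, a difference of -0.83 that missed the limit in fold (adjusted p = 4.74e-04). Of the 13 receptor and cofactor genes, all tested, 2 were raised and none lowered, with and without RA replicate 3, and both were stable.

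Pairs of RAR half-sites spaced by 5 bases (DR5) are the textbook RA response element, and Cyp26a1 and Rarb carry one next to a start. Promoters of RefSeq (GRCm38.p6) were searched over the 250 bases before each start, on both strands, for 2 copies in a row of the half-site AGGTCA, in which G was also allowed as the first and T as the third base, with 5 bases between them, and with 2 (DR2) or 1 (DR1). A DR5 match was found in 29 of 32851 promoters (0.0883%), of 28 genes, 6 of which were tested at 8 h. Rarb and Cyp26a1 were 2 of those 6. The other 4, Cfap45, Gm14133, Syndig1 and Blvrb, had log2 fold changes between -0.52 and -0.01 and were not called. The 100 bases before each start are shown on the strand of the gene, with the match in capitals.
Rarb: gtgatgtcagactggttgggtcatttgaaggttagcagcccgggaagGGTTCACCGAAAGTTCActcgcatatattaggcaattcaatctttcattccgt
Cyp26a1: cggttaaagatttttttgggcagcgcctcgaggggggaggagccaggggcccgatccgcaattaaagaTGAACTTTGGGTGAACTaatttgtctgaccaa
The first stretch is chr14:16575477-16575576 on the minus strand, with the match 53 to 37 bases before a start that lies inside the longer annotated gene, and the second is chr19:37697708-37697807 on the plus strand, with the match 32 to 16 bases before the start and its half-sites on the opposite strand. Only 142 of the 200 raised and 63 of the 85 lowered genes had a promoter in the table, less than 80%, so that a share over the called genes is void. DR2 matches stood in 0.174% and DR1 matches in 0.164% of all promoters. A match in letters does not show binding. Exons of Top2b lie over Rarb on the opposite strand, with up to 5877 counts in a library against up to 925 for Rarb, and the strand setting of the counting is not given in the sources used here.

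Genes of RA uptake and binding split by replicate. Stra8, an RA-induced gene known as the gatekeeper of meiosis in germ cells, measured 10.3, 9.29 and 11.1 CPM in the untreated libraries and 268, 262 and 118 CPM in the RA libraries, a log2 fold change of 4.40 ± 0.32, adjusted p = 4.42e-04, and the call was stable. Its RA replicate 3 was far below the other RA libraries and still above every untreated one. Stra6, the retinol uptake receptor, went from 3.79, 3.33 and 2.12 CPM to 21.8, 21.7 and 7.96 CPM and was called only without RA replicate 3 (log2 fold change 2.82, adjusted p = 6.64e-10 against log2 fold change 2.48, adjusted p = 0.0120). Crabp2, which carries RA to its receptor, lay at 35.7, 33.2 and 46.05 CPM and 79.7, 75.4 and 27.2 CPM, where RA replicate 3 fell below all untreated libraries and replicates 1 and 2 above them. It was not called with that library (log2 fold change 0.67, adjusted p = 0.26) and was raised without it (log2 fold change 1.01, adjusted p = 6.34e-07). Of 9 genes listed 8 were in the table. Of 7 tested, 2 were raised, and 4 of 8 were raised without RA replicate 3, with none lowered either way.

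Hox genes, the homeobox genes whose order along each cluster mirrors their order along the body axis, gave more rises than any other list, and those raised were the 3' and middle members of the A and B clusters. Of 39 Hox genes 21 had enough counts to be tested, 9 of them only through the RA libraries, and 14 were raised and none lowered. Those 9 include Hoxa4, Hoxb5 and Hoxb6, which are among the raised, so that the count is partly set by the filter. Without RA replicate 3, 18 of 21 were raised. Over all genes tested 1.26% were raised, and 3.71% without that library. Hoxb1 (chr11:96365752-96368256), already measurable without RA, went from 5.60, 5.86 and 6.11 CPM to 149.8, 152 and 78.8 CPM, a log2 fold change of 4.44 ± 0.27, adjusted p = 1.89e-04. Its groups did not overlap, and RA replicate 3 was the lowest of the RA libraries. Paralog groups 2 and 3, whose proteins pattern the rhombomeres of the hindbrain, followed with log2 fold changes of 2.46 for Hoxa2, 5.06 for Hoxb2, 3.72 for Hoxa3 and 4.43 for Hoxb3. Hoxb2 measured 2.80, 2.38 and 2.79 CPM untreated and 109, 109.7 and 46.9 CPM with RA, so that RA replicate 3 was well below its replicates and still far above every untreated library.

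Among Hox genes tested, the largest folds with all libraries were those of Hoxb5, Hoxb4, Hoxb6, Hoxa4 and Hoxa5, from near-zero untreated levels. These belong to groups 4 to 6, of the caudal hindbrain and cervical cord. Hoxa4, Hoxb5 and Hoxb6 were tested only through the RA libraries, so that their place is partly set by the filter. Without RA replicate 3, Hoxb2 (log2 fold change 5.35) stood above Hoxa5 (5.15). Hoxb5 (chr11:96303336-96306121) had 1, 4 and 10 counts in the untreated libraries and 601, 521 and 329 in the RA libraries, or 0.0549, 0.199 and 0.481 CPM and 25.2, 23.6 and 18.2 CPM, and a log2 fold change of 6.44 ± 0.39, adjusted p = 1.89e-04. Hoxb4 rose from 0.768, 0.596 and 1.01 CPM to 37.6, 42.6 and 33.1 CPM (5.57 ± 0.19, adjusted p = 1.86e-05), and Hoxa5 from 1.10, 0.745 and 0.866 CPM to 31.4, 33.04 and 27.1 CPM (5.08 ± 0.17, adjusted p = 1.86e-05). Both pairs of groups were clearly separate, and RA replicate 3 was again the lowest of the RA libraries. Hoxa4 rested on 3, 0 and 3 untreated counts and Hoxb6 on 2, 3 and 7, so that the fitted values of 5.45 and 5.56 depend on few reads at the low end. Their RA levels were 4.82, 4.35 and 4.92 CPM and 11.3, 12.4 and 5.58 CPM. Hoxa7, Hoxb7 and Hoxb8 had log2 fold changes of 2.93, 2.47 and 3.18.

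Group 9 and later genes, and those of the C and D clusters, did not pass with all libraries. Hoxb9 measured 2.41, 2.83 and 1.92 CPM and 9.10, 6.12 and 2.32 CPM, so that RA replicate 3 lay among the untreated libraries, and it was called only without that library (log2 fold change 1.66, adjusted p = 1.17e-05 against log2 fold change 1.30, adjusted p = 0.11). Hoxa9, Hoxa10 and Hoxc4 were likewise called only without RA replicate 3, although that library was above all untreated ones in each. Hoxa10 measured 0.384, 0.0994 and 0.0962 CPM untreated and 1.09, 1.68 and 3.70 CPM with RA, and as in Hoxa9 its RA replicate 3 was the highest of the group. Another 18 Hox genes had too few counts for the test. Hoxc8, Hoxc13 and Hoxd13 were not called either way and had log2 fold changes of -1.05, -1.17 and -1.11. Stable calls included those of Hoxa3, Hoxa5, Hoxb1, Hoxb2, Hoxb3, Hoxb4 and Hoxb5. Hoxb6 lost its call without untreated replicate 1 (adjusted p = 0.0102) and Hoxa4 without untreated replicate 1 or 3 (0.0105 to 0.0144). Hoxa2, Hoxa7, Hoxb7 and Hoxb8 kept theirs only when RA replicate 3 was the library left out, with adjusted p-values of 0.0102 to 0.0645 without any other. Opposite-strand transcripts overlap exons of Hoxa3, Hoxa4, Hoxa7, Hoxb2, Hoxb3 and Hoxb5, the most abundant beside its gene being Hoxb3os, with up to 314 counts against 289 for Hoxb3.

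Among partners of Hox proteins and regulators of the hindbrain, a minority were called with all libraries. Meis2, a cofactor with which Hox proteins bind DNA, measured 38.6, 41.1 and 45.04 CPM untreated and 184, 191 and 94.4 CPM with RA (1.91 ± 0.24, adjusted p = 0.00418), and Pbx2, another cofactor, 50.5, 58.97 and 60.4 CPM and 147, 139.5 and 94.8 CPM (1.17 ± 0.16, adjusted p = 0.00520). Meis1 went from 1.04, 1.29 and 1.06 CPM to 11.3, 13.2 and 3.26 CPM and was called only without RA replicate 3 (log2 fold change 3.42, adjusted p = 2.85e-10 against log2 fold change 3.03, adjusted p = 0.0125). Of the 9 Meis, Pbx and Pknox genes 2 were raised, and 4 without that library. Zfp703 (chr8:26977325-26981461), a zinc-finger corepressor gene, varied little within its groups, with 2.03, 2.04 and 2.07 CPM untreated and 109, 101 and 90.8 CPM with RA, and a log2 fold change of 5.62 ± 0.10, adjusted p = 9.32e-07, and the call was stable. Zfp503, the paralog of Zfp703, rose by less (log2 fold change 2.14, adjusted p = 0.00411), as did Gbx2, which sets the rostral limit of the hindbrain (log2 fold change 1.06, adjusted p = 0.00411). In Zfp503, Gbx2, Meis2 and Pbx2 the call was lost without any 1 library other than RA replicate 3 (adjusted p = 0.0129 to 0.0422). Of 12 tested hindbrain regulators of 15 listed, 4 were raised and none lowered. Without RA replicate 3 there were 8 raised and 1 lowered of 13. Shares raised and lowered over all genes tested were 1.26% and 0.537%, and 3.71% and 1.39% without that library.

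Posterior and dorsal patterning genes gave single calls, where 1.26% of all genes tested were raised and 0.537% lowered (3.71% and 1.39% without RA replicate 3). Cdx1, a caudal-type homeobox gene upstream of Hox genes, measured 1.70, 1.74 and 1.06 CPM in the untreated and 16.9, 14.96 and 12.05 CPM in the RA libraries, with a stable log2 fold change of 3.29 ± 0.24, adjusted p = 4.31e-04. T, the Brachyury gene of the primitive streak, lay at 5.71, 6.91 and 6.06 CPM and 1.51, 2.08 and 0.442 CPM, groups apart from each other, and passed only without RA replicate 3 (log2 fold change -1.81, adjusted p = 3.65e-06 against log2 fold change -2.18, adjusted p = 0.0204). Of 13 tested genes of the Cdx and posterior axis list 1 was raised, and without that library 3 were raised and 2 lowered. Olig3, a dorsal progenitor gene of the hindbrain and spinal cord, went from 2.91, 3.08 and 3.51 CPM to 39.7, 39.3 and 11.9 CPM, a log2 fold change of 3.26 ± 0.45, adjusted p = 0.00558. RA replicate 3 was far below its replicates in Olig3 and above every untreated library, and the call was lost without any library other than it (adjusted p = 0.0183 to 0.0512). Pax6, which marks neural progenitors, measured 18.3, 17.2 and 18.3 CPM and 29.4, 34.3 and 31.4 CPM, so that all RA libraries were higher at 0.83 (adjusted p = 0.00254), under the fold limit. Among 19 tested neural progenitor genes Olig3 was the one raised, and 4 were raised without RA replicate 3. Of 9 tested forebrain and midbrain genes Otx2 was the one called, as lowered, and without RA replicate 3 there were 1 raised and 1 lowered of 11.

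Genes of the early epiblast, the pluripotent layer from which the neural plate forms, made up 5 of the 12 largest falls. Their list was chosen with earlier results of these data known, so that this count describes the falls and is not independent support. Of 18 tested genes of that list 5 were lowered and none raised, with a median of -0.52 against 0.02 over all genes. Otx2 (chr14:48657677-48673819), a homeobox gene needed for forebrain and midbrain identity, measured 207, 205 and 223 CPM untreated and 31.4, 29.05 and 20.9 CPM with RA, with a log2 fold change of -2.96 ± 0.14, adjusted p = 8.48e-05. Fgf5, the growth factor gene most used to mark the postimplantation epiblast, went from 53.01, 47.7 and 52.1 CPM to 4.49, 5.62 and 1.55 CPM (-3.68 ± 0.35, adjusted p = 0.00107). Foxd3, a forkhead gene of epiblast and neural crest, went from 46.8, 43.7 and 51.2 CPM to 4.91, 6.16 and 3.20 CPM (-3.29 ± 0.20, adjusted p = 2.11e-04). In each of these the highest RA library lay well below the lowest untreated one, and RA replicate 3 was the lowest of all. Dnmt3b, a de novo DNA methyltransferase gene, measured 1919, 1883 and 1924 CPM and 548, 529 and 293 CPM (-2.06 ± 0.22, adjusted p = 0.00173). Lef1, a transcription factor of the Wnt pathway, measured 125, 139 and 133 CPM and 38.3, 37.5 and 21.2 CPM (-2.03 ± 0.20, adjusted p = 0.00146). Otx2 and Foxd3 were stable, Fgf5 lost its call without untreated replicate 1 or 3 (adjusted p = 0.0124 to 0.0164), and Dnmt3b and Lef1 lost theirs without any 1 untreated library (0.0126 to 0.0202). Without RA replicate 3 the count was 8, with Tdgf1, Sall2 and Pou3f1 added at -1.31, -1.09 and -1.15. Over the 7 early epiblast markers the summed level was 2836 to 2972 CPM in the untreated and 657 to 896 CPM in the RA libraries. Dnmt3b alone held 1883 to 1924 CPM of the untreated and 293 to 548 CPM of the RA sums, so that its fall weighs heavily on them.

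Core pluripotency genes were not called. Pou5f1, the gene of OCT4, measured 799, 833 and 896 CPM untreated and 581, 567 and 821 CPM with RA (log2 fold change -0.35, adjusted p = 0.18), Nanog 98.2, 119 and 123 CPM and 149, 115 and 162 CPM (log2 fold change 0.33, adjusted p = 0.18), and Sox2 304, 305 and 346 CPM and 247, 250.02 and 249 CPM (log2 fold change -0.35, adjusted p = 0.0248). The groups overlapped for Pou5f1 and Nanog and did not for Sox2, and none of the 3 was called. In the list of 20 naive and core genes, all tested, 2 were raised and none lowered, and without RA replicate 3 there were 2 raised and 2 lowered. The 2 raised with all libraries were Tbx3, a T-box gene of naive cells and of primitive endoderm, which went from 10.5, 11.6 and 10.5 CPM to 44.8, 39.02 and 60.3 CPM (2.15 ± 0.18, adjusted p = 6.16e-04), and Tet2, a 5-methylcytosine dioxygenase gene, which went from 115, 117 and 91.5 CPM to 255, 268 and 342 CPM (1.43 ± 0.16, adjusted p = 0.00217). Both calls held without any 1 RA library, and that of Tbx3 was lost without untreated replicate 1 or 3 and that of Tet2 without any 1 untreated library (adjusted p = 0.0105 to 0.0197). Fgf4, a target of OCT4 and SOX2, lay at 234, 239 and 249 CPM and 129, 106 and 153 CPM and passed the fold limit only without RA replicate 3 (-1.04 against -0.89).

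Signalling pathways gave few calls, where 1.26% of all genes tested were raised and 0.537% lowered (3.71% and 1.39% without RA replicate 3). Of 21 genes of FGF ligands and ERK feedback, Fgf5 was lowered, and without RA replicate 3 there were 4 lowered. One of these was Fgf15, a ligand gene at 19.04, 20.1 and 20.8 CPM and 4.23, 3.22 and 8.90 CPM (log2 fold change -2.43, adjusted p = 3.99e-10 against log2 fold change -1.88, adjusted p = 0.0169). Of 14 tested Nodal pathway genes 1 was lowered, Fst, whose product follistatin binds activin, with 26.6, 21.1 and 27.7 CPM untreated, 3.10, 3.40 and 0.663 CPM with RA and a log2 fold change of -3.36 ± 0.43, adjusted p = 0.00430. In the Hedgehog list of 12 tested genes 1 was raised, Hhip, a secreted antagonist induced by the pathway, at 4.34, 3.88 and 3.70 CPM and 20.1, 22.1 and 9.12 CPM (2.11 ± 0.32, adjusted p = 0.00835). Neither call held without any 1 library other than RA replicate 3 (adjusted p = 0.0126 to 0.0668), and without that library 2 Nodal pathway genes were lowered and 2 Hedgehog genes raised. Cdx1 and Lef1 were the genes called among 22 Wnt targets and antagonists, of which 2 were raised and 1 lowered without RA replicate 3. None of 12 BMP ligand and Id genes was called by edgeR, with 3 higher and 1 lower at an unadjusted p under 0.05, 2 raised by DESeq2 and 2 raised by edgeR without RA replicate 3. At that unadjusted p 15.1% of all genes tested were higher and 13.7% lower. Mycn, a growth-promoting transcription factor gene, was called stably among 10 genes of the Myc family and its antagonists, with 339, 337 and 372 CPM, 88.97, 87.5 and 80.8 CPM and a log2 fold change of -2.02 ± 0.07, adjusted p = 1.87e-05, and 2 of the 10 were lowered without RA replicate 3.

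Few genes of the cell adhesion, stress and control lists were called. At an unadjusted p under 0.05 by edgeR, 7 of 13 cadherin and junction genes were lower and 2 higher. Their median was -0.54, or -0.30 without RA replicate 3. Of 19 stress genes 9 were higher and 1 lower, with a median of 0.46, or 0.26 without that library. Over all genes tested 13.7% were lower and 15.1% higher. By DESeq2, 2 junction genes were lowered and 4 stress genes raised. Cdh4, the gene of R-cadherin, was the 1 of 13 cadherin and junction genes lowered, at 5.32, 5.02 and 5.44 CPM and 1.76, 1.72 and 1.33 CPM (-1.70 ± 0.19, adjusted p = 0.00232), and lost its call without any library other than RA replicate 3 (adjusted p = 0.0114 to 0.0243). Podxl, which encodes the apical sialomucin podocalyxin, went from 219, 223 and 210.4 CPM to 58.99, 50.7 and 11.4 CPM and was called only without RA replicate 3 (log2 fold change -1.996, adjusted p = 1.03e-11 against log2 fold change -2.43, adjusted p = 0.0246). Of 12 lysophosphatidic acid genes none was called by edgeR, with 6 lower at an unadjusted p under 0.05 (13.7% of all genes tested) and 1 lowered by DESeq2, and Enpp2, the gene of autotaxin, was called without that library (log2 fold change -2.41, adjusted p = 1.29e-11). In the stress list of 19 tested genes Atf3 (2.72 ± 0.30, adjusted p = 0.00226) and Chac1 (1.15 ± 0.18, adjusted p = 0.00868) were raised. Atf3 lost its call without RA replicate 1 or any 1 untreated library (adjusted p = 0.01003 to 0.0245), and Chac1 lost its call without each single library, including RA replicate 3, without which its log2 fold change was 0.94. None of 82 ribosomal protein genes was called by edgeR or DESeq2, 0 had an unadjusted p under 0.05 by edgeR, and their median was -0.07. Of 23 tested imprinted genes 1 was lowered, Mirg, a noncoding RNA of the Dlk1-Dio3 region (log2 fold change -1.01, adjusted p = 0.00718), and it too was lost without each single library. Of 11 tested neuron differentiation genes none was called by edgeR, with 2 higher and 1 lower at an unadjusted p under 0.05 (15.1% and 13.7% of all genes tested) and 1 lowered by DESeq2, and without RA replicate 3 there were 2 raised.

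**Figure D2:**
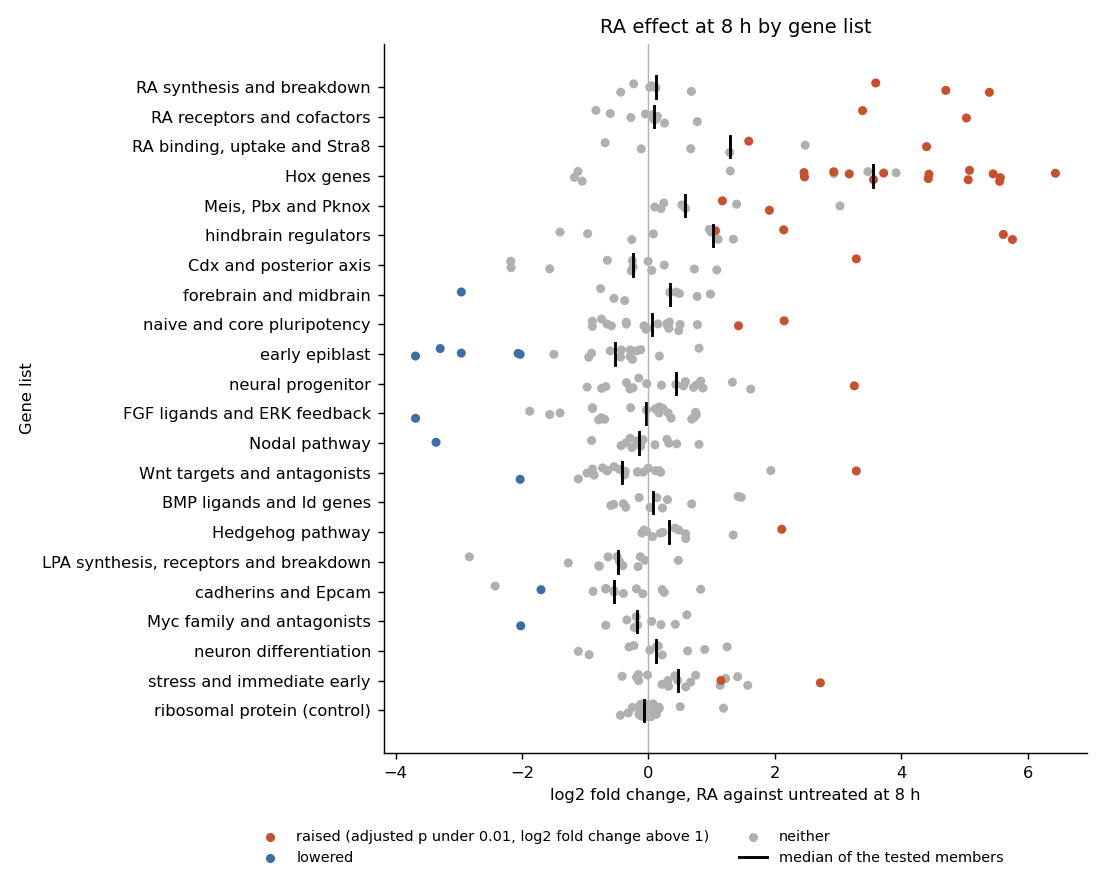
Log2 fold change of RA against untreated at 8 h (horizontal axis) for the tested members of 22 gene lists (vertical axis, members spread vertically for visibility). Red points were raised, blue lowered and grey neither, and black bars are medians of the tested members, with the ribosomal protein list at -0.07. Of the 21 Hox genes shown, 9 were tested only through their counts in the RA libraries.

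Markers of other cell types were measured beside these groups, where 1.26% of all genes tested were raised and 0.537% lowered. The 12 markers of primitive or visceral endoderm summed to 15.1 to 17.2 CPM in the untreated and 25.5 to 41.9 CPM in the RA libraries, and 3 of the 9 tested were raised, where 2 of the 9 passed the count filter only through the RA libraries and 3 only through the untreated ones. These were Sox7 (SOX family, log2 fold change 3.24, adjusted p = 0.00147), Gata6 (GATA family, log2 fold change 2.97, adjusted p = 0.00249) and Foxa1 (forkhead family, log2 fold change 2.87, adjusted p = 0.00150), all of them transcription factor genes expressed in endoderm. Gata6 measured 0.604, 0.348 and 0.770 CPM and 4.49, 3.49 and 5.58 CPM, with no overlap between groups. Sox17, which had too few counts for the test, was raised without RA replicate 3. The calls of Sox7 and Gata6 were lost without any 1 untreated library, Gata6 also without RA replicate 1, and Foxa1 without untreated replicate 1 or 2 (adjusted p = 0.0114 to 0.0252). Sums over the 12 mesoderm markers were 23.0 to 26.4 CPM and 6.96 to 20.3 CPM, over the 8 neural crest markers 53.4 to 61.3 and 11.5 to 16.7 CPM, and over the 8 surface ectoderm markers 185 to 196 and 86.7 to 116 CPM. In the neural crest list Foxd3 was the 1 of 7 tested that was lowered, and the median log2 fold change was 0.46. Foxd3 alone held 43.7 to 51.2 CPM of the untreated and 3.20 to 6.16 CPM of the RA sums, so that the lower neural crest sum is mostly that gene. In the surface ectoderm list Grhl3 was raised (log2 fold change 1.06, adjusted p = 0.00257) and Grhl2 lowered (log2 fold change -1.62, adjusted p = 0.00190), both grainyhead-like factors of epithelia, and neither call was stable (adjusted p up to 0.0274 and 0.0197). Grhl2 had up to 2899 counts in a library, against up to 871 for Grhl3, so that its fall weighs heavily on the surface ectoderm sum. Trophoblast markers summed to 52.7 to 63.0 and 54.5 to 131 CPM, with Psg17 at 0 in every library, 2-cell markers to 3.66 to 4.77 and 0.442 to 5.35 CPM, and neuron markers to 188 to 212 and 167 to 179 CPM. RA replicate 3 had the lowest RA sum in each of these lists except the pluripotent one, where it had the highest. The part of such cells in the results was not tested.

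RA replicate 3 decided many calls, and did so in both directions. In the 200 raised genes it was the lowest of the 3 RA libraries 102 times, the highest 69 times and between the others 29 times, and in the 85 lowered genes it was the lowest 64 times. Among the 606 genes raised without it, 439 were also above every untreated library in RA replicate 3 and 167 were not, while of 227 lowered genes 217 were below and 10 were not. The largest rises that were called only without it were Gabrp, Meis1, Sox17, Dach1 and Gjb1. Gabrp, a GABA receptor subunit gene, measured 4.86 and 4.12 CPM in RA replicates 1 and 2 but 0.0553 CPM in replicate 3, which was under all 3 untreated libraries at 0.219 to 0.529 CPM. Dach1, a transcription cofactor gene, measured 8.43, 10.6 and 1.66 CPM with RA against 0.823 to 1.14 CPM, so that replicate 3 stayed above the untreated libraries. The largest falls of this kind were Cyp2j13, Ccdc187, Fgf15, Enpp2 and 1190005I06Rik. Enpp2 measured 51.4, 46.7 and 47.5 CPM untreated and 9.89, 8.47 and 1.71 CPM with RA, so that replicate 3 was the farthest from the untreated level and the spread among RA libraries was wide.

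**Figure D3:**
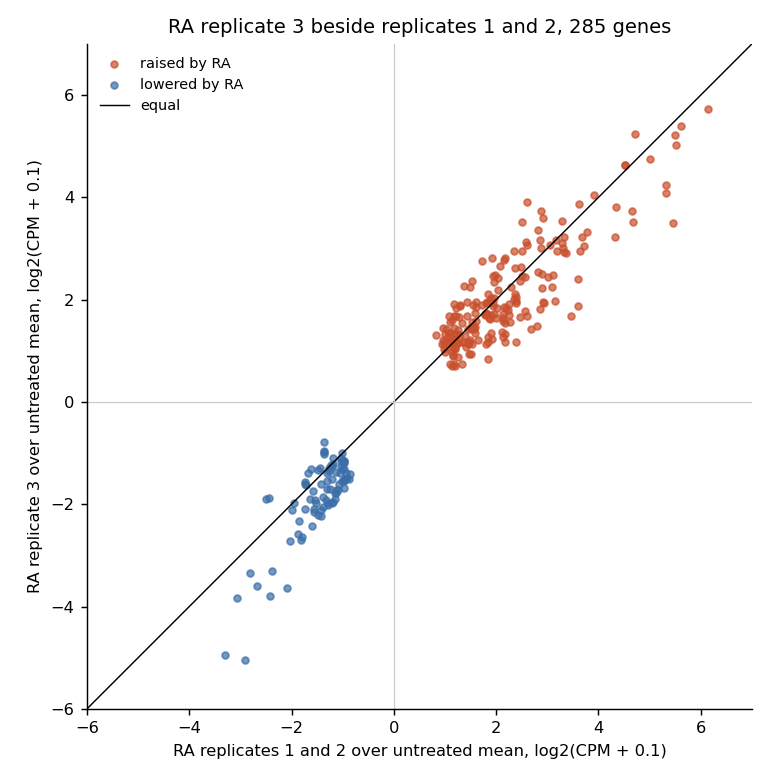
Change against the untreated mean, on the log2(CPM + 0.1) scale, in RA replicate 3 (vertical axis) and in the mean of RA replicates 1 and 2 (horizontal axis) for the 200 raised (red) and 85 lowered (blue) genes. The line marks equal change, and the 64 lowered genes with replicate 3 lowest lie below it, which follows from how they were picked.

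Beyond the lists, the called genes covered other functions, and those named next were chosen after their values were seen. Adgra2, an adhesion receptor gene that acts in Wnt7 signalling, went from 1.43, 1.34 and 1.78 CPM to 24.6, 24.2 and 26.6 CPM (4.05 ± 0.15, adjusted p = 1.87e-05). Aqp3, a water and glycerol channel gene, went from 22.1, 30.8 and 29.1 CPM to 275, 222 and 212 CPM (3.12 ± 0.15, adjusted p = 8.70e-05), and Tle6, of the Groucho family, went from 6.42, 6.66 and 7.27 CPM to 64.9, 59.05 and 61.9 CPM (3.20 ± 0.09, adjusted p = 8.45e-06). In these 3 genes RA replicate 3 was far above every untreated library, and the calls were stable. Exons of Brf2 lie over Adgra2 on the opposite strand, with up to 585 counts against 586 for Adgra2. Rises of smaller size included Kit, the stem cell factor receptor gene (log2 fold change 1.77, adjusted p = 8.31e-05), Vegfa, a vascular growth factor gene (log2 fold change 1.81, adjusted p = 1.56e-04), Epha7, an ephrin receptor gene (log2 fold change 1.96, adjusted p = 2.11e-04), and Ski, a repressor of SMAD signalling (log2 fold change 1.23, adjusted p = 1.77e-04), and these 4 were stable too. Among falls, Zfp36l2, an RNA-binding decay factor gene, went from 122, 115 and 122 CPM to 43.5, 36.4 and 35.7 CPM (-1.63 ± 0.09, adjusted p = 1.56e-04) and Myb, a transcription factor gene, from 44.6, 45.5 and 47.2 CPM to 12.3, 14.8 and 15.03 CPM (-1.70 ± 0.10, adjusted p = 2.11e-04), both stable. Of the 12 largest falls, Vrtn, a gene that sets the number of vertebrae, was stable and went from 75.4, 72.7 and 72.99 CPM to 11.6, 11.3 and 5.97 CPM (-2.92 ± 0.22, adjusted p = 4.43e-04). The others of the 12 not described above, Kcng3, Slc35d3, Gm12688, Thy1 and Mfap4, had log2 fold changes between -2.82 and -2.03 and were not stable (adjusted p = 0.0118 to 0.0622 without the libraries that cost the call). Mfap4 also lies under exons of Mapk7 on the opposite strand, with up to 1383 counts against 110.

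The 18 h libraries, which share none with the 8 h comparison, gave a separate reading of the same genes. At 18 h RA had raised 1348 and lowered 455 of 16508 genes (8.17% and 2.76%). Of the 200 genes raised at 8 h, 199 were tested at 18 h and 180 were raised again, which is 90.0% of the 8 h list and 13.4% of the 18 h list. Of the 85 lowered genes 84 were tested and 66 were lowered again, 77.6% of the 8 h list and 14.5% of the 18 h list. None was called in the opposite direction, and 198 of 199 and 84 of 84 kept their sign. Median log2 fold changes went from 1.96 to 2.10 in raised and from -1.42 to -1.60 in lowered genes. With the calls made without RA replicate 3, 498 of 606 (82.2%) and 168 of 227 (74.0%) were called again. Together 246 genes were called at both times, and 666 without RA 8 h replicate 3, 154 without RA 8 h replicate 1, and 73, 108 and 78 without untreated 8 h replicates 1, 2 and 3. The exception in sign was Tal2, a basic helix-loop-helix gene, raised at 8 h (log2 fold change 1.54, adjusted p = 0.00447) and at a log2 fold change of -0.08 at 18 h.

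An interaction term, fitted to the 8 h and 18 h libraries together, called 58 of 17009 genes (0.341%) as having unequal RA effects at the 2 times (adjusted p below 0.01). Of these, 13 were also called at 8 h, and all 13 had gone further in the same direction at 18 h. Among the falls of these 13, Foxd3 had the largest difference, with a log2 fold change of -3.29 at 8 h and -5.95 at 18 h, with 0.711 ± 0.177 CPM left in the RA libraries at 18 h. Bcl11a, a zinc-finger repressor gene, went from -1.39 to -3.26, the noncoding RNA gene Platr10 from -1.14 to -2.95, and Mycn from -2.02 to -2.63. The other falls that deepened were those of Gm12688, Cdhr1, Zfp459, Mcf2 and Usp28. On the rising side, Tshz1, a teashirt zinc-finger gene of the trunk, went from 2.96 to 5.83, Cdx1 from 3.29 to 5.55, Zfp703 from 5.62 to 7.04, and Ptprz1, a receptor phosphatase gene of neural progenitors, from 1.78 to 3.31. Olig3 went the other way, from 3.26 to 1.28, a difference that did not pass with all libraries (adjusted p = 0.0734) and passed without RA 8 h replicate 3, at -2.36 (adjusted p = 1.74e-07). Without RA 8 h replicate 3 the interaction called 456 of 17443 genes (2.61%), all 58 among them, without RA 8 h replicate 1 or 2 it called 56 or 46, and without any 1 of the other 9 libraries 11 to 24.

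**Figure D4:**
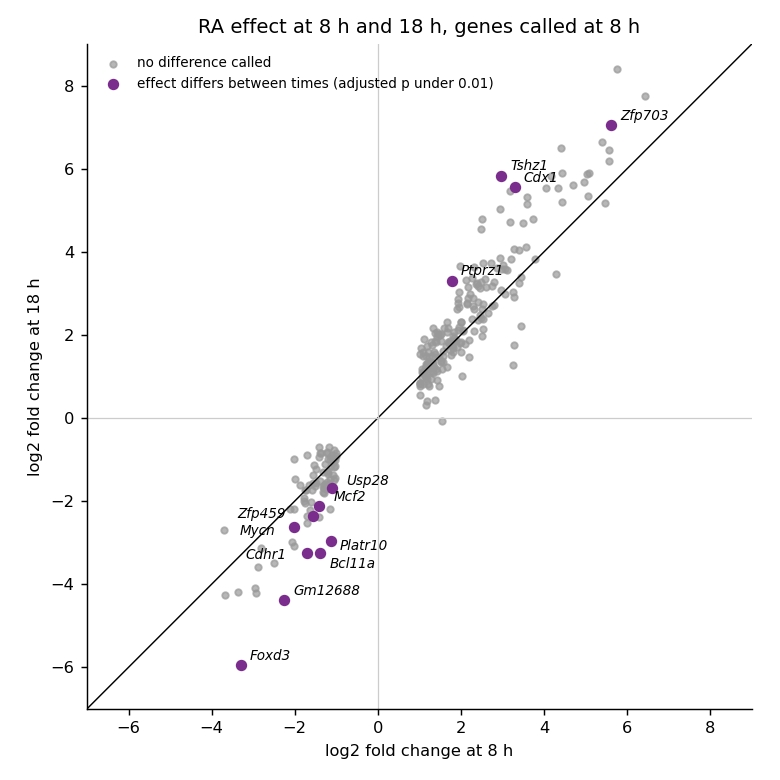
Log2 fold change of RA against untreated at 18 h (vertical axis) and at 8 h (horizontal axis) for the 283 called genes tested at both times. The line marks equal effects, and the 13 labelled points are genes whose effect differed between the times at an adjusted p under 0.01, all of them farther from 0 at 18 h.

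Levels over the rest of the series place the 8 h values in their course. Cyp26a1 in RA-treated organoids measured 232 ± 44.2 CPM at 8 h (mean ± SD, n = 3), 276 ± 16.9 CPM at 18 h and 30.5 ± 21.9 CPM at 30 h, and by 78 h it was at 5.18 ± 0.974 CPM, against 7.62 ± 1.51 CPM without RA. The mean of Rarb stayed between 29.8 and 56.9 CPM with RA at every later time. Stra8 measured 216 ± 85.2 CPM with RA at 8 h and 517 ± 9.14 CPM at 18 h. Hoxb1 with RA went from 127 ± 41.7 CPM at 8 h to 8.74 ± 3.25 CPM at 78 h, whereas untreated organoids went from 5.86 ± 0.257 to 58.9 ± 2.75 CPM. The mean of Olig3 with RA was highest at 8 h, with 30.3 ± 15.96 CPM against 13.2 ± 1.42 CPM at 18 h. It was carried by RA replicates 1 and 2, since replicate 3 at 11.9 CPM lay below every RA library at 18 h (12.1 to 14.8 CPM). The untreated level passed that of RA later, with 50.4 ± 1.15 CPM at 54 h. Mean levels of Otx2 and Foxd3 in RA-treated organoids stayed at or below 14.4 and 1.89 CPM from 18 h on. Single libraries reached 18.8 CPM for Otx2 (RA 30 h replicate 3) and 2.61 CPM for Foxd3 (RA 78 h replicate 1). These later levels are given as values, without a test.

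**Figure D5:**
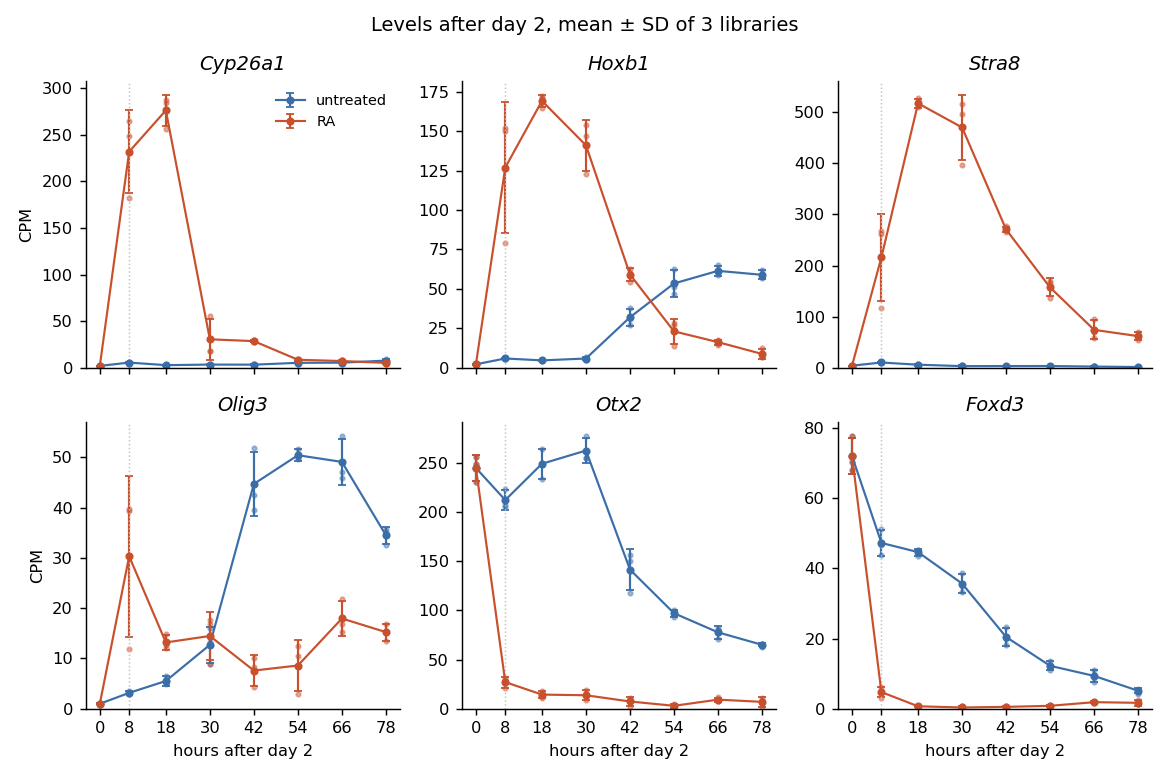
CPM of 6 genes at day 2 (0 h) and at the 7 later times up to 78 h, with RA (red) and without (blue). Points are single libraries, lines join means and bars are SD (n = 3), both lines start from the same day 2 libraries, and the dotted line marks 8 h, where Olig3 had its highest level with RA.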

How the data were processed

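The labels describe poly(A) RNA sequencing, for which the authors deposited raw read counts per gene, made per the labels with Trim Galore 0.5.0, Bowtie2 2.3.4.1 and featureCounts of Subread 1.6.2 on GRCm38. The paper's methods name STAR as the aligner, and the strand setting of the counting is not given in the sources used here. Samples were grouped by the labels, with 3 biological replicates per group. Here the 6 libraries at 8 h were fitted with edgeR 4.0.16 (R 4.3.3) by its quasi-likelihood test on TMM-scaled counts, after filterByExpr (minimum count 10, total 15). P-values were adjusted by Benjamini-Hochberg over all genes tested. Calls required an adjusted p below 0.01 with a log2 fold change beyond 1 or -1, and all tests were two-sided. CPM values use TMM-scaled library sizes. SE is an approximate standard error, the absolute log2 fold change divided by the square root of the quasi-likelihood F statistic. The interaction over 12 libraries at 8 h and 18 h had no minimum fold. Members and lists were chosen with earlier results of these data known. Named genes were the 12 largest rises and falls among called genes with non-overlapping groups and a mean of at least 1 CPM, members of the gene lists, and the 5 largest rises and falls called only without RA replicate 3. A few genes that the rule names are not reported here. Others are marked as chosen after their values were seen. Alternatives were other scalings and filters, DESeq2 1.42.0, fits of all 45 libraries, a replicate block, glmTreat, another threshold and each library left out. The scripts were tested on simulated counts. The replicate numbers were not taken as pairs in the main fits. Same-numbered RA and untreated libraries at 8 h did not deviate together, but RA replicate 3 weighs on that check. It did not cover 18 h, so that pairing is not excluded. Depth was 19087115 to 24357498 counts per library.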

Additional observations from a re-analysis of the deposited data

Results flagged for a closer look

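The RA effect differed between the 2 times, by the interaction term, for 58 genes, of which 31 had a higher and 27 a lower log2 fold change at 18 h than at 8 h. The 13 that were also called at 8 h are given here as the log2 fold change at 18 h minus that at 8 h. On the rising side the difference was 2.84 for Tshz1, 2.24 for Cdx1, 1.54 for Ptprz1 and 1.43 for Zfp703. On the falling side it was -2.66 for Foxd3, -2.13 for Gm12688, -1.87 for Bcl11a, -1.82 for Platr10, -1.55 for Cdhr1, -0.79 for Zfp459, -0.71 for Mcf2, -0.61 for Mycn and -0.60 for Usp28. All 58 were also called without RA 8 h replicate 3, and 0 were called with the replicate number as a block. Groups of 3 are too small for a formal search for single outlying samples. RA replicate 3 stood apart in the replicate differences given above, which were not such a search.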

How the results depend on the processing

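No named gene's log2 fold change changed sign under the alternatives run. Without RA replicate 3 the median log2 fold change changed sign in 4 lists, from -0.24 to 0.03 for the Cdx and posterior axis, -0.32 to 0.23 for Y-linked genes, -0.16 to 0.25 for trophoblast and -0.33 to 0.13 for 2-cell markers. Counts of raised and lowered genes at 8 h were 347 and 190 when all genes with any count were kept, 365 and 200 by DESeq2, 511 and 298 in one edgeR fit of all 45 libraries, 530 and 299 by DESeq2 on all 45, 944 and 832 at an adjusted p under 0.05 with no minimum fold, and 55 and 7 with glmTreat, against 200 and 85. Single libraries left out gave 59 to 606 raised and 20 to 227 lowered genes. Genes called at 8 h and again at 18 h numbered 246, 448 by DESeq2, and 73 to 666 with single libraries left out. The interaction called 58 genes, 348 with those genes kept, 313 by DESeq2 and 11 to 456 with single libraries left out. Other scalings and a minimum of 10 counts in every library kept each count within 1.5 times. The cause of these differences was not tested.

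With the replicate number as a block the counts were 90 raised and 35 lowered, 118 called at both times, and 0 for the interaction, where edgeR gave 2264 genes at an unadjusted p under 0.05. The numbers are not shown to pair the libraries. Deviations of same-numbered libraries at 8 h correlated at -0.105, -0.007 and 0.034, and not every library correlated best with its own number. That check cannot exclude pairing, because the outlying RA replicate 3 weighs on the deviations and 18 h was not covered.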

Other observations

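Genes that RA raised also stood at other levels in untreated organoids at 8 h than on day 2, before RA was added. The genes were chosen after their values were seen, the untreated 8 h libraries are the same as in the comparison above, and no test was run. Cyp26a1 measured 1.95 ± 0.230 CPM on day 2 (mean ± SD, n = 3), 5.51 ± 0.335 CPM in untreated organoids at 8 h and 232 ± 44.2 CPM with RA. Hoxb1 measured 2.18 ± 0.164, 5.86 ± 0.257 and 127 ± 41.7 CPM in the same order, and Stra8 3.98 ± 0.164, 10.2 ± 0.912 and 216 ± 85.2 CPM. Rarb followed with 0.357 ± 0.199, 1.25 ± 0.287 and 40.5 ± 9.16 CPM. In all 4 genes the untreated mean at 8 h lay between the other two. Foxd3, which RA lowered, measured 72.00 ± 5.14 CPM on day 2, 47.2 ± 3.78 CPM untreated and 4.76 ± 1.48 CPM with RA.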
